A study of Mus musculus with 9 samples.

Results

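Among 52224 fibroblasts in 9 single-cell libraries of mouse cultures undergoing conversion to neurons, 2084 cells carried at least 3 of 5 marker transcripts, Egfl6, Mab21l2, Pou3f3, Dlx5 and Dlx6. The cells were selected on these same libraries. A barcode entered with at least 3000 UMI (unique molecular identifiers, each counting 1 captured transcript) and at most 20% mitochondrial UMI, which left 81999 of 95603 barcodes. A fibroblast had at least 60 UMI of Col1a1, Col1a2 and Col3a1 together per 10000 UMI and fewer than 10 per 10000 of the macrophage genes Tyrobp, Fcer1g, Ctss and Csf1r. A selected fibroblast, called a member in the plots, had at least 1 UMI of 3 or more of the markers. The levels of these 5 genes, and every contrast of the selected cells with other fibroblasts of the same library, are therefore given as descriptions with no test.

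The cultures were mouse embryonic fibroblasts (MEFs) at passage 1, made from mid-gestation embryos without head and heart, 4 embryos to a dish and with sex not determined. They came from wild-type (WT), Per1-/- (allele Per1tm1Drw) or Per2-/- (allele Per2tm1Drw) mice, which lack a component of the circadian clock. All of them, WT included, received lentiviral transcription factors under doxycycline, Brn2 (Pou3f2) and Myt1l among them, that convert fibroblasts into induced neurons (iNs), and were collected 4, 7 or 10 days after doxycycline and neuronal medium were added. The labels call all cultures induced neurons, although fibroblasts remained in each. Each genotype and day had 1 library, so the 3 days stood as the repeats of a genotype and the 3 genotypes as the repeats of a day. Litter, culture and library cannot be told apart, and a p-value measures the spread between these libraries only.

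Dlx genes encode homeodomain transcription factors that lie in the genome as linked pairs, such as Dlx5 with Dlx6, and pattern the lower jaw, the genital tubercle and the growing limb. Pou3f3 (Brn1) encodes a POU-domain factor of the nervous system, the kidney and facial mesenchyme, and Mab21l2 a protein of the developing eye, limb and body wall. Egfl6 encodes a secreted protein of the matrix around hair follicles and other embryonic epithelia. Hox genes record position along the trunk and limbs, with the highest-numbered groups most posterior and distal, and cranial mesenchyme in front of the hindbrain expresses none of them.

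Several of the transcripts described here come from neighbouring genes (GENCODE M21, GRCm38). Pou3f3 lies on the plus strand at chr1:42695768-42703176, and the long non-coding gene Pantr1 on the minus strand at chr1:42590782-42694842, so that their starts are 926 bases apart. Dlx6 (chr6:6863334-6868568, plus strand) and Dlx5 (chr6:6877805-6882085, minus strand) are separated by 9236 bases, and the antisense transcript Dlx6os1 overlaps Dlx6 by 5235 bases. Mab21l2 (chr3:86545581-86548629) lies within Lrba on the other strand, and Egfl6 is on chromosome X at 166523007 to 166585720. The promoters of 4 genes are shown because their genes carry the main differences: Pou3f3, whose promoter fills part of the gap to Pantr1, and Barx1, Cyp26b1 and Hoxa2, which the rule did not use. Each stretch runs from 250 bases before to 50 bases after the RefSeq start (GRCm38.p6), with capitals marking a match to CAGCTG, an E-box.
Pou3f3, chr1:42695518-42695817, plus strand: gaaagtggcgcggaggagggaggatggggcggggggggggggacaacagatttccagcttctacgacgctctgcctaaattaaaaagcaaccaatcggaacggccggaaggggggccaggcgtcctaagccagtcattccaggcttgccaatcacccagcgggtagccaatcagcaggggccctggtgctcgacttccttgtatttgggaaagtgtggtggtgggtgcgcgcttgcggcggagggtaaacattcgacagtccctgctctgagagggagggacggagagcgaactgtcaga
Barx1, chr13:48662786-48663085, plus strand: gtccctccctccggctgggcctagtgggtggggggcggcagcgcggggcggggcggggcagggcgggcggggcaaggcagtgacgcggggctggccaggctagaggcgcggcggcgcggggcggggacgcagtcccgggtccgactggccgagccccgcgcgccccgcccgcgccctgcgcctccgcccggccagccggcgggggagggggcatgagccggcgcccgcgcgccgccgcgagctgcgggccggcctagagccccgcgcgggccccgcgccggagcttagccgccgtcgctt
Cyp26b1, chr6:84593761-84594060, minus strand: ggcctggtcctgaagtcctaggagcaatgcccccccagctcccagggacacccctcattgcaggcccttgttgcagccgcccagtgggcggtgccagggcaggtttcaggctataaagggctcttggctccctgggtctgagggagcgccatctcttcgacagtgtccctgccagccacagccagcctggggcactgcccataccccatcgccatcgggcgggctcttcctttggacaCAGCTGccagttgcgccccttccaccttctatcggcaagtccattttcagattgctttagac
Hoxa2, chr6:52164782-52165081, minus strand: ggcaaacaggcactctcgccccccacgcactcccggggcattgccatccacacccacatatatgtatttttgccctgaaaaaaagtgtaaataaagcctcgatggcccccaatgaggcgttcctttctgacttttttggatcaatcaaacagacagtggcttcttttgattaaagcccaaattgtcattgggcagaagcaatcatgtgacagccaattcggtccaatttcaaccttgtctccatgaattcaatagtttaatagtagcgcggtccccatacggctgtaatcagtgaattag
On both strands, CAGCTG was found in 16.3% of 32851 promoters of this length, the homeodomain motif TAATTA in 5.29% and the octamer ATGCAAAT in 1.74%. Of these 4 promoters, Cyp26b1 held CAGCTG, 12 bases before its start, and neither of the other motifs was found in any of them.

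The selected cells were a small fraction of the fibroblasts in 8 libraries and a larger one in the Per2-/- library of day 4. Their share was 21.3% there (1088 of 5101 cells, 95% exact binomial interval 20.2 to 22.5%), against 2.11% (102 of 4843) in WT and 4.39% (287 of 6542) in Per1-/- cells of the same day. On day 7 the shares were 2.10% in WT (123 cells), 1.40% in Per1-/- (52 cells) and 2.17% in Per2-/- (163 cells). On day 10 they were 2.22% in WT (109 cells), 0.929% in Per1-/- (56 cells) and 1.35% in Per2-/- (104 cells). The Per2-/- library of day 4 thus held 52.2% of all selected cells, and the later Per2-/- libraries lay within the range of the other genotypes over all days. These intervals cover counting error only.

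Depth per cell sets the chance of detecting a transcript. The selected Per2-/- cells of day 4 had a median of 18527 UMI and the other fibroblasts of that library 19891. In the other libraries the selected cells had 17811 to 40923 UMI and the other fibroblasts 13229 to 32151. Cells with at least 10000 UMI were also thinned to that depth, and shallower cells were left out. The shares then fell to 12.0% in the Per2-/- library of day 4 and to 0.358 to 1.75% elsewhere. The 1.75% belongs to WT day 10, where 2227 of 4919 fibroblasts were too shallow, against 34 to 331 in the other libraries. In macrophages, which should lack these transcripts, 0 cells of 115 to 1301 per library carried 3 of the markers, at median depths of 18345 to 33956 UMI. Outside both gates 3 to 66 cells per library carried 3 markers, and 211 in the Per2-/- library of day 4. The cells with the highest doublet scores were flagged in each library. Their share was set in advance at 0.8% per 1000 barcodes. These high doublet scores fell on 3.85 to 31.4% of the selected cells and 2.21 to 11.6% of the other fibroblasts of a library. Without those cells the share was 20.6% in the Per2-/- library of day 4 and 0.877 to 3.64% elsewhere.

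Averaged over days the share was 8.28% in Per2-/-, 2.24% in Per1-/- and 2.14% in WT cultures. The Per2-/- mean was 6.09 percentage points above that of the other genotypes (exact permutation test of genotypes within days, two-sided, p = 0.148, adjusted p = 0.296 over 4 tests). The smallest p that the 27 arrangements allow is 0.037. A single genotype test at that p could not pass adjustment over the 4 tests, so not passing decides nothing about a genotype difference. The difference from the other genotypes was -2.97 points for Per1-/- (exact permutation p = 0.704) and -3.12 points for WT (exact permutation p = 0.630). The slopes over days summed to -3.89 points per day over the 3 genotypes (exact permutation p = 0.0463, adjusted p = 0.185), to -1.88 after thinning (exact permutation p = 0.361) and to -0.83 without the Per2-/- library of day 4. No share test passed after adjustment, and without the Per2-/- library of day 4 and its day 4 counterparts the Per2-/- difference was 0.0993 points and the WT difference 0.695 points.

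**Figure D1:**
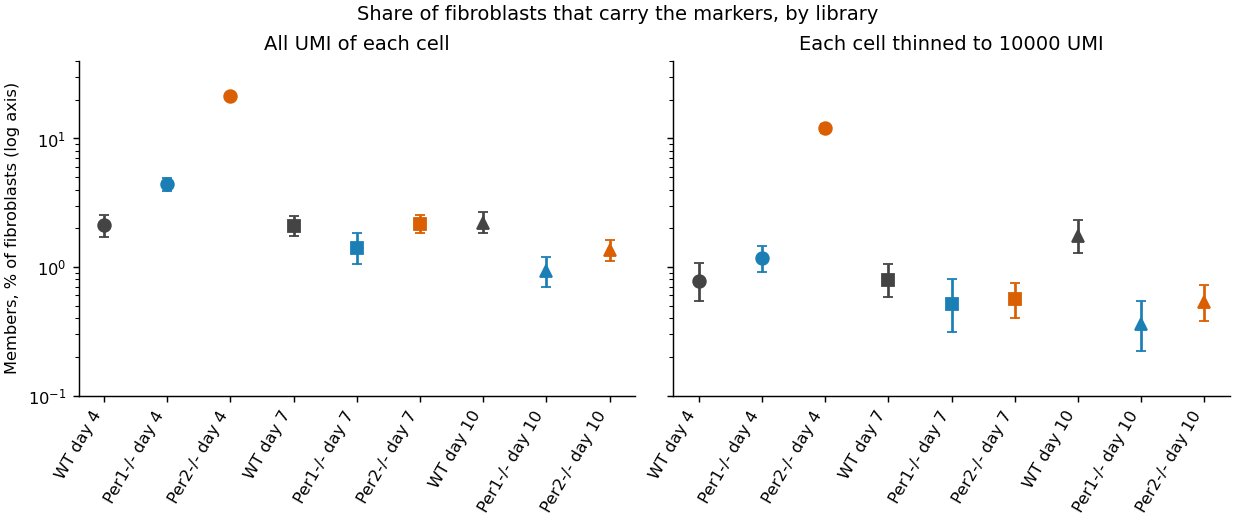
Share of fibroblasts with at least 3 of the 5 markers in each of the 9 libraries (percent, log axis), from all UMI (left) and after thinning to 10000 UMI (right). Cells under 10000 UMI are left out on the right. Points are single libraries and bars are 95% exact binomial intervals; the Per2-/- library of day 4 stands at 21.3% and 12.0%, above all others.

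Read as Pou3f3 with Dlx5 or Dlx6, the name Dlx5, Dlx6 and Pou3f3 fibroblasts described most selected cells of 1 library and a minority elsewhere. Cells with all 3 named genes were a minority in that library too. In the Per2-/- library of day 4, 62.9% of the selected cells (684 of 1088) carried Pou3f3 together with Dlx5 or Dlx6. In the other 8 libraries together 11.7% did (117 of 996), with 8.13 to 33.9% in single libraries. Elsewhere the rule gathered mostly cells with Pou3f3 and neither Dlx gene (39.7%, 9.47% in the Per2-/- library of day 4) and cells with a Dlx gene without Pou3f3 (48.6%, against 27.7%). All 5 markers were present in 143 cells, 128 of them in that library. The most frequent set was Egfl6, Mab21l2 and Pou3f3, in 498 cells, of which 395 came from the other 8 libraries.

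Counted over all fibroblasts, co-detection of these genes gave the same contrast. It uses genes of the rule and largely the same cells, so it restates the contrast and adds no separate support. In the Per2-/- library of day 4, Pou3f3 was detected in 58.3% of Dlx5-positive and 12.5% of Dlx5-negative fibroblasts. In the other libraries it was detected in 4.32 to 12.9% of Dlx5-positive and 2.12 to 7.52% of Dlx5-negative fibroblasts. Dlx6 followed Dlx5 in every library, detected in 11.8 to 47.0% of Dlx5-positive and 0.329 to 7.74% of Dlx5-negative fibroblasts. Selected cells with a Dlx gene, with or without Pou3f3, and those with Pou3f3 but no Dlx gene are therefore also compared below.

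**Figure D2:**
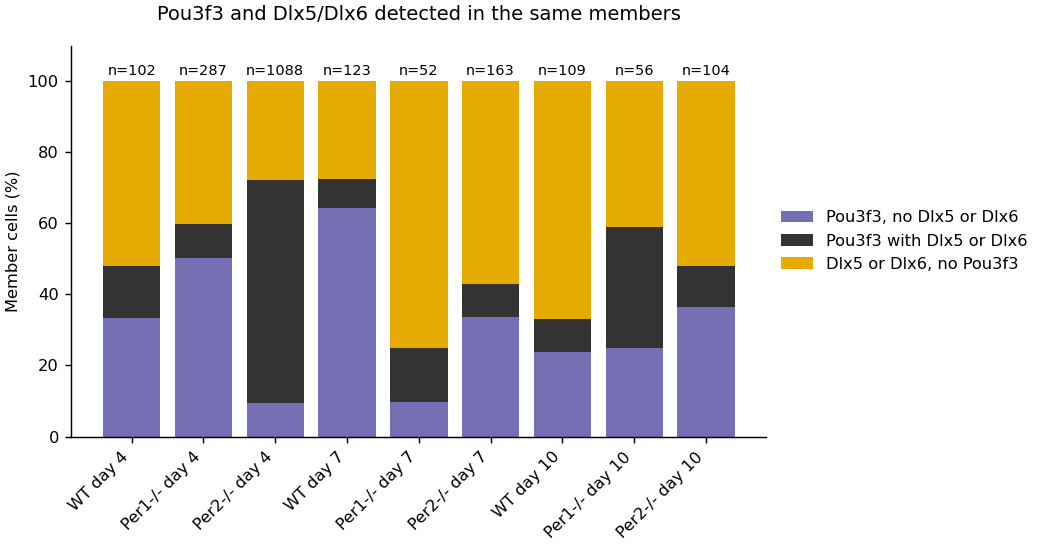
Share of selected cells in each library (percent, n above each bar) that carried Pou3f3 alone, Pou3f3 with Dlx5 or Dlx6, or Dlx5 or Dlx6 alone. The joint class makes up 62.9% of the bar for the Per2-/- library of day 4 and 8.13 to 33.9% of the other bars.

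The markers differed in how widely they occurred outside the selected cells. Egfl6 was detected in 27.9 to 48.1% and Mab21l2 in 9.73 to 27.6% of the other fibroblasts, but Pou3f3 in 1.71 to 6.70% and Dlx5 in 0.907 to 3.99%. Egfl6 stood at 227 to 833 and Mab21l2 at 59.0 to 120 CPM (counts scaled to a fixed total of the summed UMI) in the selected cells, against 78.2 to 301 and 8.05 to 25.9 in the others. Dlx5 reached 53.9 CPM in the selected Per2-/- cells of day 4 and 13.8 to 35.9 in those of the other libraries, against 0.354 to 2.54 in the other fibroblasts. Dlx6 stood at 44.8 CPM in the first, at 9.44 to 31.5 in the other selected cells and at 0.076 to 1.61 in the other fibroblasts. Pou3f3 stood at 68.9 CPM in the selected Per2-/- cells of day 4, at 19.1 to 60.3 in the other libraries and at 1.39 to 5.59 in the other fibroblasts. Counts fell step by step across the threshold: 5364 fibroblasts carried 2 of the markers, 1392 carried 3, 549 carried 4 and 143 carried 5. Fewer detected markers mean lower marker levels by the rule, so continuous and separate populations cannot be told apart here. In the Per2-/- library of day 4, cells just outside the rule had 28.8 CPM of Pou3f3 and 13.6 of Dlx5, and cells just inside it 60.5 and 45 CPM.

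The fibroblast gate itself required collagen transcripts, so the level of fibroblast markers is a description of the gate. All 13 were detected, and their summed level was 16951 to 34070 CPM in the selected cells and 17941 to 33401 CPM in the other fibroblasts. Of 24 matrix and fibroblast genes with at least 10 CPM, 18 had a lower and 6 a higher median in the selected cells, with a median log2 ratio of -0.15 against 0.02 over all 8971 genes. Lum and Dpt, small matrix proteins of mature connective tissue, were lower in all 9 libraries (median log2 ratio -0.81 and -1.21), and Postn, a matricellular protein, was higher in all 9 (0.59). Macrophage markers summed to 33.5 to 139 CPM in the selected cells and 18.2 to 121 CPM in the others, and were at least 2-fold higher in the selected cells of 2 libraries. Without cells of high doublet score these sums were 18.6 to 107 and 18.2 to 118 CPM, 2-fold higher in 0 libraries. Mesothelial markers summed to 0 to 15.5 CPM and were lower than in the other fibroblasts in all 9 libraries. Of 5 endothelial markers 4 were detected, summing to 0.777 to 7.83 CPM against 1.61 to 4.48 and 2-fold higher in 2 libraries, with Tie1 at 0. Of 8 skeletal muscle markers 7 were detected, summing to 1.47 to 18 CPM against 9.03 to 13.6, with Myf5 at 0.

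Beyond the 5 markers, few genes separated the selected cells in every library. Of 8971 genes with at least 10 CPM, 8 (0.0892%) were at least 2-fold higher in all 9 libraries, of which 5 were the markers themselves, and 3 (0.0334%) were at least 2-fold lower. The 3 higher genes outside the rule were 3110099E03Rik, Pantr1 and Cyp26b1, and the 3 lower ones Hoxd13, Hoxd11 and Tfap2b. All 3 lower genes rest on 0 to 3 UMI in the selected cells of the Per1-/- libraries of days 7 and 10, where a 2-fold difference could not be resolved. When 8 of 9 libraries sufficed, a rule added after the values were seen, 12 genes (0.134%) were higher and 8 (0.0892%) lower, adding Barx1, Hoxa2, Gfra2 and Meis1 to the first and Ptgds, Hoxa13, Cxcl15, Adh1 and Dkk2 to the second. Without the Per2-/- library of day 4 the genes outside the rule that passed in all 8 others were 5, and Cyp26b1 was left out because its average fell below 10 CPM, although its median log2 ratio stayed at 2.11 to 2.29 whichever library was left out. Without WT day 10 the count was also 5, and 3110099E03Rik was no longer among them, with median log2 ratios of 3.69 to 4.07 over the libraries left out. Without cells of high doublet score 7 genes passed. Hoxd13 and Tfap2b were not among them, although their median log2 ratios were larger in size, at -2.97 and -3.42.

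The higher genes included the neighbours of the markers. Pantr1, the non-coding gene beside Pou3f3, stood at 23.2 CPM in WT, 28.6 in Per1-/- and 27.1 in Per2-/- selected cells of day 4, at 27.8, 5.13 and 23.2 on day 7 and at 21.1, 10.9 and 25 on day 10. The other fibroblasts had 0.774 to 4.05 CPM, so the groups did not overlap (median log2 ratio 3.17, range 2.65 to 3.81). With at least 4 markers required, in 4 libraries, the median was 1.87. Dlx1 and Dlx2, the linked pair on chromosome 2, were at least 2-fold higher in all 9 libraries but averaged below 10 CPM, with 3.88 to 15.1 CPM of Dlx1 against 0.407 to 0.999 and 3.63 to 12.6 CPM of Dlx2 against 0.960 to 2.39. Dlx6os1, which overlaps Dlx6 on the other strand, had 1.85 to 7.28 CPM against 0.104 to 0.706.

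3110099E03Rik, a non-coding gene 335319 bases from Meis2 on the same strand, had the highest median ratio of the genes outside the rule with at least 10 CPM. It stood at 10.2, 5.79 and 14.5 CPM in WT, Per1-/- and Per2-/- selected cells of day 4, at 8.47, 12.5 and 6.27 on day 7, and at 26.5, 4.66 and 6.32 on day 10. The other fibroblasts held 0.311 to 2.06 CPM (median log2 ratio 3.83, range 2.79 to 5.46). Meis1 and Meis2, homeodomain partners of Hox and Pbx proteins, were higher in all 9 libraries. Meis1 stood at 68.2 to 151 CPM against 19.1 to 45.2 (median log2 ratio 1.26), and Meis2 at 260 to 467 CPM against 128 to 209 (0.97). The groups did not overlap for either gene.

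**Figure D3:**
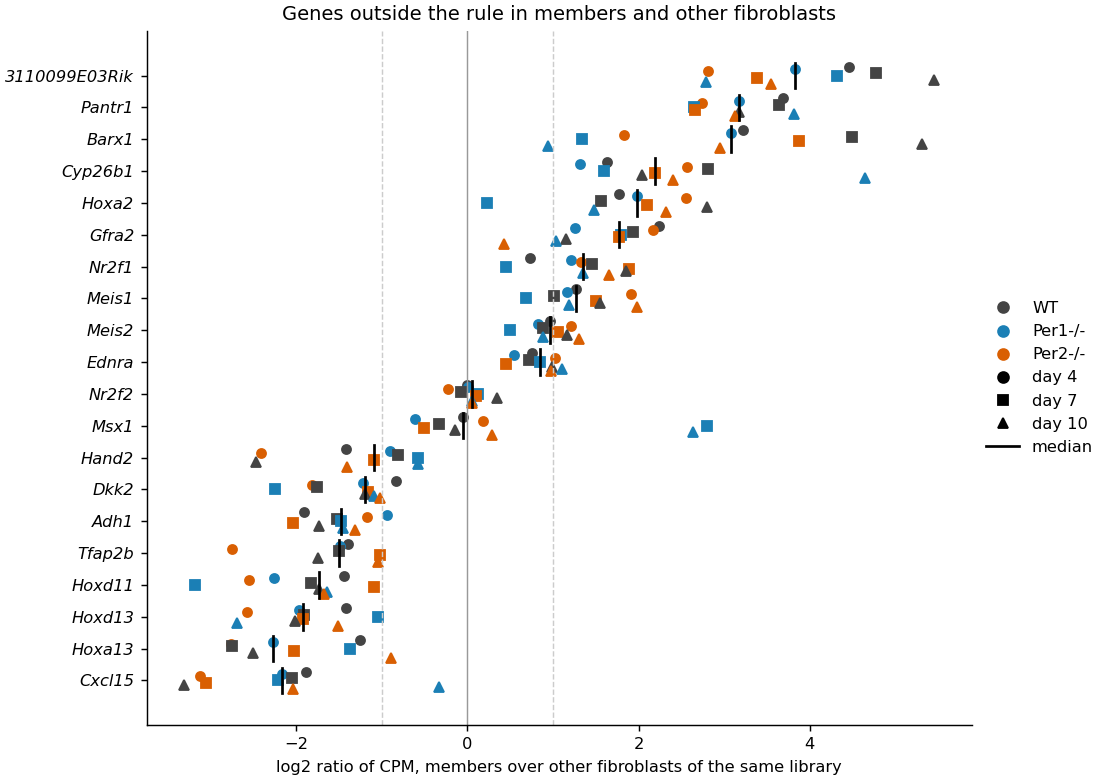
log2 ratio of CPM in selected cells over other fibroblasts of the same library for 20 genes outside the rule; colour gives the genotype, shape the day, black bars the median of the 9 libraries, and dashed lines 2-fold. Libraries with 0 UMI in the selected cells (2 for Tfap2b and 1 for Hoxa13) have no point. 3110099E03Rik lies at 2.79 to 5.46 and Hoxd13 at -2.69 to -1.04. The 2 ends for Hoxd13 rest on 1 and 2 UMI, in the Per1-/- libraries of days 10 and 7, and are not resolved.

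Genes of cranial and facial mesenchyme differed among themselves. Of 8 listed regulators with at least 10 CPM, 6 had a higher and 2 a lower median (median log2 ratio 0.45). Barx1, a homeodomain factor of the jaws, teeth and stomach wall, stood at 37.1, 55.0 and 24.3 CPM in WT, Per1-/- and Per2-/- selected cells of day 4, at 32.9, 11 and 47.9 on day 7, and at 32.2, 9.32 and 68.0 on day 10. The other fibroblasts had 0.814 to 8.77 CPM of Barx1, without overlap (median log2 ratio 3.09, range 0.94 to 5.31). Nr2f1 (COUP-TFI), a nuclear receptor, stood at 64.5 to 221 CPM against 39.9 to 66.2 (median log2 ratio 1.35), and its relative Nr2f2 at 87.2 to 175 against 80.0 to 138 (0.05). Ednra, the endothelin receptor that sets Dlx5 and Dlx6 expression in the lower jaw, stood at 61.8 to 110 CPM against 32.2 to 51.9, again without overlap (0.85). Pax9 was at least 2-fold higher in 4 libraries (0.81), and Foxd1 had 1.63 to 35.4 CPM against 7.74 to 20.4 (0.10).

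Tfap2b, another regulator of that list, was lower. It stood at 7.59 to 25.6 CPM in the selected cells of 7 libraries, against 15.6 to 52.2 in the other fibroblasts of the same libraries. In the Per1-/- libraries of days 7 and 10 it was at 0 UMI in the selected cells and at 1.32 and 2.59 CPM in the others, where the limit that 0 counts allow is 2.20 and 2.33 CPM, so no difference could be resolved there at this depth.

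Hox genes were lower as a class, with Hoxa2 as the exception. Of 20 Hox genes with at least 10 CPM, 19 had a lower median in the selected cells and 12 were lower in all 9 libraries, against 3.21% of all 8971 genes (median log2 ratio -0.96). Hoxd13 stood at 16.0, 11.9 and 8.91 CPM in WT, Per1-/- and Per2-/- selected cells of day 4 and at 42.8, 46.5 and 53.2 CPM in the other fibroblasts. Over all 9 libraries the selected cells had 0.777 to 28.1 CPM and the others 3.02 to 80.2 (median log2 ratio -1.92). The Per1-/- libraries of days 7 and 10 rest on 2 and 1 UMI of Hoxd13 in the selected cells. Hoxd11 was lower with a median log2 ratio of -1.73 and Hoxa13 with -2.27. Among cells of 15000 to 30000 UMI the median ratios were -4.27 for Hoxd13, -3.79 for Hoxd11 and -4.61 for Hoxa13.

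Hoxa2, which specifies the second pharyngeal arch, went the other way. It stood at 13, 13.8 and 37.1 CPM in WT, Per1-/- and Per2-/- selected cells of day 4, at 10.4, 7.33 and 18.3 on day 7 and at 27.1, 24.9 and 20.6 on day 10. The other fibroblasts held 3.50 to 8.94 CPM (median log2 ratio 1.98). It was higher in all 9 libraries, least in Per1-/- on day 7 with 7.33 against 6.23 CPM, so that the groups overlapped between libraries.

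Summed over groups, Hox genes 1 to 4 had a median log2 ratio of -0.19 (range -0.72 to 0.44), genes 5 to 9 of -0.89 (-2.07 to -0.19) and genes 10 to 13 of -1.24 (-2.42 to 0.05). Genes 5 to 9 were higher in the selected cells of 0 libraries and genes 10 to 13 of 1, Per1-/- on day 7. The difference was widest in the Per2-/- library of day 4, where genes 5 to 9 stood at 49.5 CPM against 208 and genes 10 to 13 at 36.7 against 196.

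**Figure D4:**
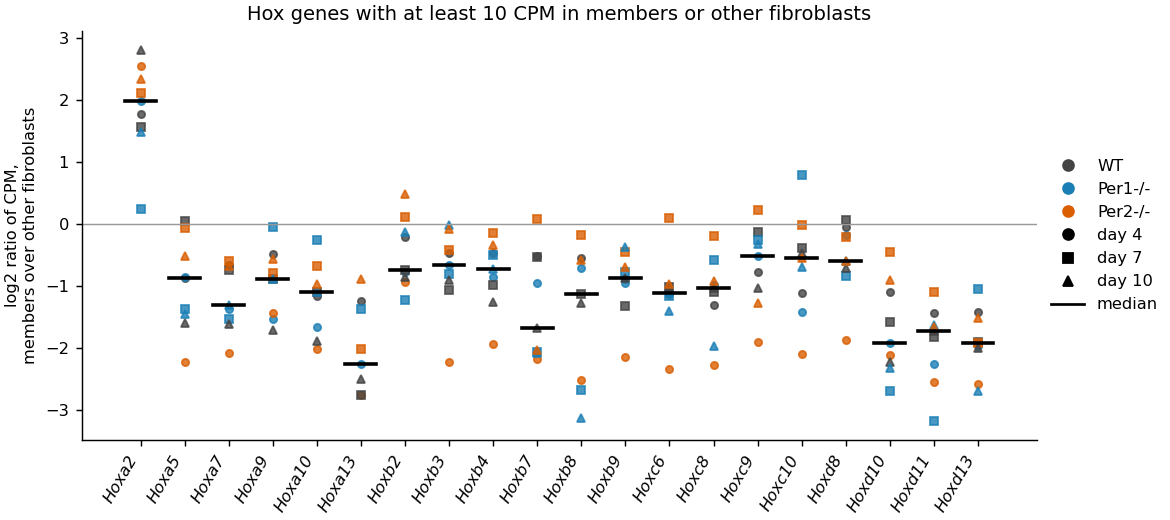
log2 ratio of CPM in selected cells over other fibroblasts of the same library for the 20 Hox genes with at least 10 CPM; colour gives the genotype, shape the day and black bars the median. Hoxa2 is the single gene with its median above 0, at 1.98; the library with 0 UMI of Hoxa13 in the selected cells has no point.

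Regulators of limbs and body wall were mixed. Of 26 listed genes with at least 10 CPM, 11 had a higher and 15 a lower median (median log2 ratio -0.09), and 3 were higher and 4 lower in every library, as were 3.58% and 3.21% of all genes. Hand2, which acts in the posterior limb and the pharyngeal arches, stood at 6.61 to 33.8 CPM against 10.4 to 89.5 and was lower in all 9 libraries (median log2 ratio -1.09). Tbx5 of the forelimb (-1.14) was also lower in all 9, and Tbx4 of the hindlimb and genital tubercle in 8 (-1.98). Prrx1, a factor of limb and facial mesenchyme, was higher in all 9 (0.48, 482 to 930 CPM against 311 to 545). Msx1 showed no common direction (-0.05), with 34.1 to 70.6 CPM in the selected cells of 7 libraries. In the Per1-/- libraries of days 7 and 10 it stood at 11.7 and 25.6 CPM in the selected cells and at 1.69 and 4.13 CPM in the other fibroblasts.

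Retinoic acid genes gave 1 of the calls above. Cyp26b1, the enzyme that degrades retinoic acid in limb and face, stood at 9.74, 14.9 and 47.3 CPM in WT, Per1-/- and Per2-/- selected cells of day 4, at 9.92, 5.86 and 4.09 on day 7 and at 6.33, 17.9 and 4.74 on day 10. The other fibroblasts had 0.716 to 8.0 CPM (median log2 ratio 2.19), so that the groups overlapped between libraries but not within any. Of the 7 genes of the list with at least 10 CPM, 5 had a higher median (list median 0.18), among them the synthesising enzyme Aldh1a2 (0.94, higher in 7 libraries).

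Secreted regulators were also mixed. Sfrp2 and Sfrp1, which bind Wnt ligands, were higher in all 9 libraries (median log2 ratio 1.23 and 0.96), with Sfrp2 at 381 to 1414 CPM against 143 to 1149. Dkk2, another Wnt antagonist, stood at 14.7 to 160 CPM against 69.3 to 367 and was lower in all 9 (-1.20). The 15 measured Wnt genes had a median of 0.04. Bmper, a BMP-binding protein, was higher in all 9 (1.29), Fst was lower in all 9 (-0.72), and the 18 BMP genes had a median of -0.05. The 10 FGF genes had a median of -0.14, the 6 hedgehog genes of -0.12, the 8 clock genes of -0.10, the 11 genes of basement membranes and their receptors of -0.17 and the 15 genes of the NF-kB and interferon responses of -0.14, none of them with a gene at least 2-fold different in all 9 libraries. Gfra2, a receptor subunit for neurturin, stood at 12.3 to 35.2 CPM against 2.91 to 14.9 (1.77).

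Genes of cartilage and tendon had a median of 0.43 over 7 genes. Col2a1, the cartilage collagen, was higher in all 9 libraries, at 1.3 to 92.2 CPM against 1.02 to 17.3 (1.95), and Runx2 was higher in all 9 (0.66). With at least 4 markers required, in 4 libraries, the median of Col2a1 turned to -0.20. All 17 cell-cycle genes had a higher median (list median 0.24), but each was higher in 5 to 8 libraries only.

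Neuronal and astrocyte transcripts were higher in the selected cells of most libraries, by 10 of 10 neuron and 4 of 4 astrocyte markers, but by 5 and 1 of them without cells of high doublet score. Of 12 neuronal genes with at least 10 CPM, 10 had a higher median (list median 0.71). The 10 neuron markers summed to 90.9 to 391 CPM in the selected cells and 94.9 to 247 in the other fibroblasts, at least 2-fold higher in 2 libraries. Without cells of high doublet score the sums were 58.0 to 185 and 69.3 to 235 CPM, 2-fold higher in 0 libraries. The 4 astrocyte markers summed to 61.9 to 732 CPM against 71.7 to 182, 2-fold higher in 6 libraries. Without the high doublet scores the astrocyte sums were 62.3 to 821 CPM against 64.6 to 184, 2-fold higher in 3 libraries. The 6 Schwann cell markers summed to 2.93 to 38.9 CPM against 8.26 to 45.4 and were higher in 3 libraries. Fabp7, a marker of radial glia, stood at 413 CPM in the selected WT cells and at 3.47 CPM in the selected Per2-/- cells of day 4. Its median log2 ratio of 1.95 turned to -0.70 without high doublet scores, -0.66 at 15000 to 30000 UMI and -1.90 with at least 4 markers. The introduced factor Pou3f2, a relative of Pou3f3, was at 60.8 to 242 CPM against 63.5 to 222 (-0.04). Of 10 listed GABA neuron genes, which Dlx factors switch on in the forebrain, 0 averaged 10 CPM over the libraries. Dlx1 and Dlx2, higher in the selected cells as given above, are on this list.

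The selected cells were also set beside the fibroblasts that carried Hoxd13 and Msx1, a distal limb and genital type. Those 11088 cells were chosen by at least 1 UMI of each of the 2 genes. Genes expressed together with these 2 are therefore raised there by the choice, and the number of differences measures no distance between the groups. Of 9061 genes with at least 10 CPM, 41 (0.452%, 36 of them outside the rule) were at least 2-fold higher in the selected cells of all 9 libraries and 38 (0.419%) lower, Hoxd13 and Msx1 among the latter by the choice of cells. The higher ones included 3110099E03Rik (median log2 ratio 5.25), Pantr1 (5.0), Gfra2 (3.82), Cyp26b1 (3.30), Sfrp2 (3.10), Meis1 (3.0), Bmper (2.89) and the imprinted growth regulator Dlk1 (2.15). The lower ones included Hoxa13 (-3.79), Lhx2 (-3.69), Bmp2 (-3.55), Hoxd12 (-3.17), Tbx4 (-3.03), Lhx9 (-2.22) and Hand2 (-1.78). The Per1-/- library of day 7 had 14 cells of the comparison group and that of day 10 had 54. The first is under the limit of 20 cells used for the Dlx division below. Without it 92 genes outside the 5 markers passed in the other 8 libraries, against 74 in all 9.

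Some differences grew with the number of markers in the Per2-/- library of day 4, the library with enough cells at every number. Most genes shown were chosen because they differed between selected and other fibroblasts of these same libraries. Their order over marker number thus describes 1 library and gives no separate support. From 0 to 5 markers, Hoxa2 stood at 2.29, 5.65, 21.2, 35, 37 and 44.4 CPM. Cyp26b1 stood at 2.03, 7.41, 29.0, 42.5, 47.8 and 61.2 CPM, and Meis1 at 25.6, 37.9, 92.6, 141, 155 and 171 CPM. Hoxc8, a trunk Hox gene, stood at 34.5 CPM with 0 markers, 41.7 with 1 and 3.70 with 5. Hoxd13 fell from 71.8 to 14.2, with its lowest level of 7.40 at 4 markers. Barx1 did not follow this order, with 1.76, 5.45, 26.6, 28.9, 21.0 and 18.2 CPM. Pantr1, Gfra2, Ednra and Sfrp2 were also no higher at 4 or 5 markers than at 3. From 3 to 5 markers Ednra stood at 109, 78.4 and 76.9 CPM and Sfrp2 at 606, 530 and 488. For these genes the cells with 2 markers, which the rule left out, lay between those with fewer and those with 3.

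Selected cells with and without a Dlx transcript were also compared. The cells with a Dlx transcript include those with Pou3f3, which were 684 of 985 in the Per2-/- library of day 4. In 7 libraries both kinds had at least 20 cells; the Per1-/- libraries of days 7 and 10 had 5 and 14 cells without Dlx5 and Dlx6. This division was chosen after the values were seen, and cells with neither Dlx gene carried Egfl6, Mab21l2 and Pou3f3 by the rule. Of 9097 genes, 2 (0.022%, Dlx5 and Dlx6 themselves) were at least 2-fold higher in the Dlx cells of all 7 libraries and 1 (0.011%), Pax3, was lower. Pax3, a factor of neural crest and muscle precursors, had a median of 2.16 CPM in the cells with Dlx5 or Dlx6 and 18.4 CPM in those with neither. The cells with neither also had more Pantr1 (43.2 against 9.25 CPM), Tbx18 (17.8 against 8.65), Tbx15 (58.9 against 33.9), Hand2 (29.5 against 10.7) and Hoxd8 (35.4 against 12.5), each in 7 of 7 libraries. Pantr1 lies beside Pou3f3, which the rule required in every cell with neither Dlx gene, so its direction follows from the division. The share of the 9097 genes with 1 direction in all 7 libraries is not given, so these genes are examples only.

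The cells with a Dlx gene had more 3110099E03Rik, with 15.1 against 0.806 CPM, and more Aldh1a2 (58.3 against 12.5), Msx1 (68.4 against 26.6), Hoxa2 (21.5 against 10.2), Meis1 (112 against 62.0), Meis2 (385 against 254) and Sfrp1 (306 against 177), each in 7 of 7 libraries. These too are examples, given without the share of all genes with 1 direction in all 7 libraries, and none was 2-fold higher in all 7. Barx1 stood at 64.0 against 17.1 CPM and was higher in 6 of 7, with 24.3 against 24.6 CPM in the Per2-/- library of day 4. Nr2f1 was at 146 and 144 CPM. The gap was smallest in the Per2-/- library of day 4 for several of these, with 26.2 against 35.3 CPM of Pantr1, 71.6 against 60.8 of Msx1 and 15.1 against 8.36 of 3110099E03Rik.

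**Figure D5:**
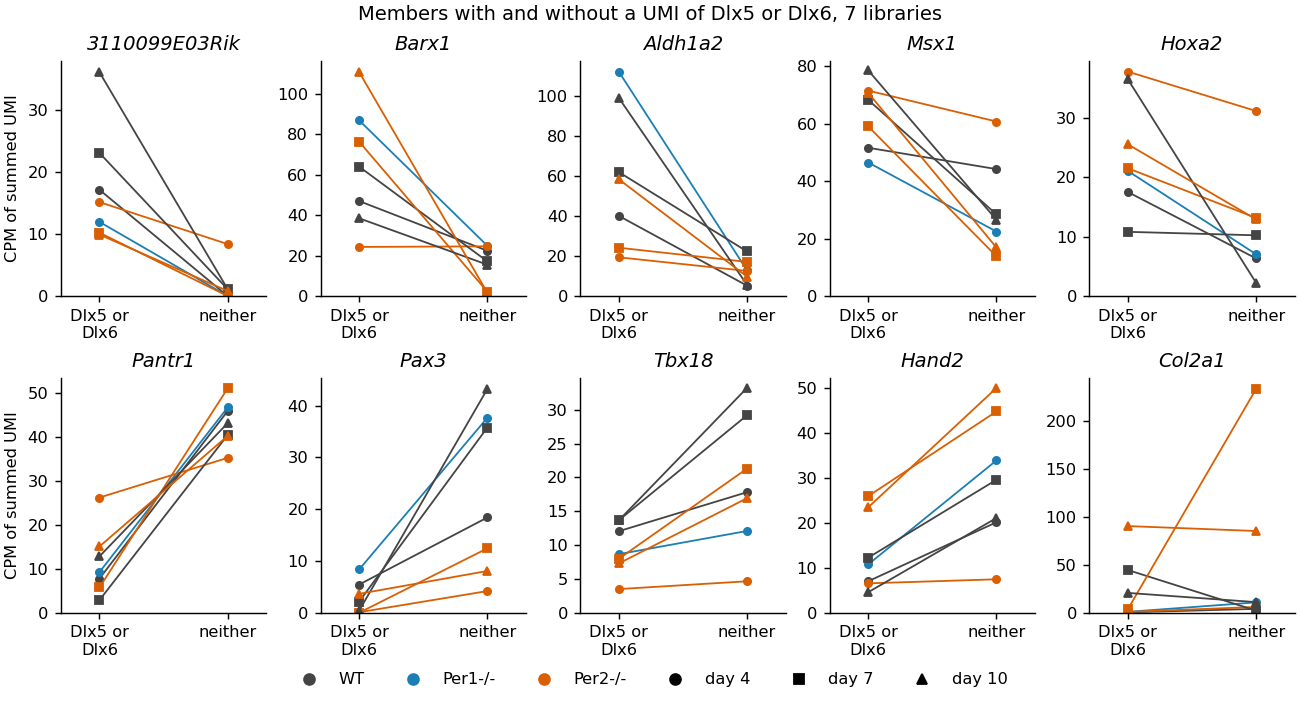
CPM of summed UMI for 10 genes in selected cells with a UMI of Dlx5 or Dlx6 and with neither, in the 7 libraries with at least 20 cells of each; lines join the values of a library, colour gives the genotype and shape the day. 3110099E03Rik, Aldh1a2, Msx1 and Hoxa2 fall in all 7 lines from left to right and Pantr1, Pax3, Tbx18 and Hand2 rise in all 7.

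Transcripts of the sex chromosomes, which differ between embryos of a dish, were not detected equally often in the selected and the other fibroblasts. In the Per2-/- library of day 4, 14.2% of the selected cells had a UMI of Xist and 90.7% a UMI of Ddx3y, Eif2s3y, Kdm5d or Uty, while the other fibroblasts had 54.5% and 48.0%. In Per2-/- on day 7 Xist was detected in 70.6% of the selected cells against 84.2%, and the Y transcripts in 56.4% against 23.5%. On day 10 these values were 66.3% against 51.0% for Xist and 59.6% against 58.7% for the Y transcripts. In WT libraries Xist was detected in 94.1, 94.3 and 99.1% of the selected cells on days 4, 7 and 10 and in 79.1, 78.1 and 85.9% of the other fibroblasts. The Y transcripts were detected there in 33.3, 18.7 and 9.17% of the selected cells and in 29.7, 25.8 and 25.4% of the others, and both kinds were detected together in 27.5% of the selected cells of day 4 against 11.1%. Without cells of high doublet score the Y transcripts were detected in 20% of the selected WT cells of day 4. In Per1-/- on day 4 Xist was detected in 72.5% of the selected cells against 55.5% and Y transcripts in 51.2% against 56.5%. On day 7 in WT, 79 of 79 selected cells with Pou3f3 and no Dlx gene had Xist. The Per1-/- libraries of days 7 and 10 had Xist detected in 0 of 52 and 0 of 56 selected cells. For the share of cells with Xist detected, this allows up to 6.85 and 6.38% (exact binomial). Of their other fibroblasts 0.164 and 0.134% had Xist detected, so no difference in detection could be resolved. The part of embryo composition in the shares and levels given here was not tested.

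Differences between genotypes in the selected cells were tested on their summed counts with edgeR, with day as a covariate, and levels in the rest of the text on these tests are CPM after TMM scaling. Between Per1-/- and WT 0 of 12504 genes (0.0%) passed an adjusted p of 0.05, with 403 at an unadjusted p below 0.05 and 7 calls by DESeq2. Between Per2-/- and WT 0 genes (0.0%) passed, with 460 at an unadjusted p below 0.05 and 16 calls by DESeq2. Between Per1-/- and Per2-/- 1 gene (0.008%) passed, Pappa, which encodes a protease that frees insulin-like growth factors from their binding proteins. Pappa stood at 107, 178 and 128 CPM in Per1-/-, 16.8, 37.3 and 41.5 in Per2-/- and 55.6, 99.5 and 62.9 in WT selected cells on days 4, 7 and 10, without overlap between the knockouts. Its log2 fold change was 2.20 ± 0.21 SE (edgeR adjusted p = 0.041), and the other fibroblasts had the same order, with 72.4, 182 and 158 CPM in Per1-/- and 44.1, 60.5 and 61.5 in Per2-/-. Without cells of high doublet score 0 genes passed (Pappa 2.42, edgeR adjusted p = 0.0896). Pappa missed the threshold in 7 of 9 fits that each left out 1 library, with log2 fold changes of 1.95 to 2.48 over the 9, and passed without Per2-/- day 4 or Per2-/- day 10. The DESeq2 calls against WT included Ddx3y and Eif2s3y of the Y chromosome in both knockouts.

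Genes outside the rule that marked the selected cells were among those that did not pass between genotypes. Barx1 had log2 fold changes of -0.22 ± 0.59 SE (Per1-/- against WT) and 0.52 ± 0.55 SE (Per2-/- against WT), Hoxa2 of -0.13 ± 0.36 and 0.78 ± 0.33, and Cyp26b1 of 0.38 ± 0.80 and 0.65 ± 0.72, each with an edgeR adjusted p of 1.0. Per1 and Per2 transcripts were counted in the knockouts at levels above WT that did not pass adjustment, with 10.3, 10.5 and 17.6 CPM of Per1 in Per1-/- and 5.60, 5.74 and 5.92 CPM of Per2 in Per2-/- selected cells on days 4, 7 and 10. WT cells had 7.94, 5.92 and 10.2 CPM of Per1 and 2.50, 3.08 and 0.854 of Per2. The tags come from the 3′ end and need not cover the deleted part, so they check nothing.

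More genes differed between the days. Xist detection in the other fibroblasts also differed between days 4, 7 and 10. It was 55.5, 0.164 and 0.134% in Per1-/-, 54.5, 84.2 and 51.0% in Per2-/- and 79.1, 78.1 and 85.9% in WT. The part of embryo composition in the day contrasts was not tested. Between days 7 and 4, with genotype as a covariate, 7 of 12504 genes (0.056%) passed, 5 higher (0.04%) and 2 lower (0.016%). The count was 2 without WT or Per1-/- day 7, 21 without Per2-/- day 4 and 151 by DESeq2. Chrdl1, a BMP antagonist, rose from 7.03, 8.52 and 3.41 CPM in WT, Per1-/- and Per2-/- cells on day 4 to 29.4, 36.3 and 20.7 on day 7 (log2 fold change 2.28 ± 0.17 SE, edgeR adjusted p = 0.00554). Prss35, a secreted protease-like protein, rose from 22.0 to 37.0 CPM on day 4 to 108 to 165 on day 7 (2.21 ± 0.19 SE, edgeR adjusted p = 0.00678). Cpz, a carboxypeptidase that acts on Wnt, rose by 2.27, Rgs7bp by 2.34 and Adamts17 by 1.66. Fdps, an enzyme of cholesterol synthesis, fell by 1.44 and Cox6b2 by 1.19. All 7 moved in the same direction in the other fibroblasts of all 3 genotypes.

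Between days 10 and 4, 270 genes (2.16%) passed, 208 higher (1.66%) and 62 lower (0.496%). Leaving out 1 library gave 84 (Per2-/- day 10) to 275 genes, and DESeq2 488. The day 10 libraries were counted against another gene table than the others, and day and table cannot be told apart. Among genes with at least 10 CPM, the rises were led by Mrpl53 (6.82), Fdx1l (6.38) and Rnasek (6.10) and the falls by Ptp4a1 (-5.53) and Rps6ka4 (-3.97). Mrpl53 and Ptp4a1 moved by 5.66 and -5.79 in macrophages of the same libraries. Of the 270 genes, 95 shifted at least 2-fold in the same direction in macrophages of all 3 genotypes, as did 71 of the 114 that changed more than 4-fold. In the other fibroblasts of all 3 genotypes 263 of the 270 had the same direction.

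Among the listed genes that passed on day 10, Chrdl1 rose by 2.74 to 39.3, 56.7 and 27 CPM in WT, Per1-/- and Per2-/- cells (edgeR adjusted p = 0.000108), against 1.80 in macrophages. Over all genes tested 1.66% rose and 0.496% fell, as given above. Of 25 matrix and fibroblast genes, 4 rose and 0 fell: Dcn (1.12), Lum (1.22), Dpt (1.57) and Mfap4 (1.02). In macrophages of the same libraries these moved by 2.30, 1.47, 1.16 and 1.28. Of 21 Wnt genes 2 rose, Sfrp2 by 1.48 ± 0.24 SE (edgeR adjusted p = 0.0163) and the receptor Fzd1 by 1.07, against 2.06 and 1.36 in macrophages. The limb and ear regulator Eya1 rose by 1.23 (0.27 in macrophages), the clock gene Per3 by 1.01 (1.02) and the hedgehog co-receptor Cdon by 0.61 (0.91). The hedgehog-binding Hhip also passed upwards at a low level. The chemokine Ccl2 stood at 21.1, 7.65 and 9.41 CPM on day 4 and at 0.569, 0.766 and 1.97 CPM on day 10 and passed as lower (edgeR adjusted p = 0.0322). The first 2 of these day 10 levels lie under the 3-count limits of 0.904 and 2.33 CPM, so the size of the fall was not resolved. Crabp1, which binds retinoic acid in the cytoplasm, fell from 1043, 906 and 1548 CPM to 442, 189 and 366 CPM (-1.88 ± 0.22 SE, edgeR adjusted p = 0.00374), against -1.25 in the other fibroblasts and -0.27 in macrophages. Of 18 cell-cycle genes 1 fell, Mcm3 (-0.83), and 0 rose. Of 31 Hox genes 1, Hoxd4, passed, and of 18 cranial regulators 0. Outside the lists, the growth factor Igf2 rose from 49.0, 67.8 and 109 CPM to 1370, 1608 and 604 (3.91 ± 0.44 SE, edgeR adjusted p = 0.00272), by 3.69 in macrophages too, and Hmga2, a chromatin protein of fetal cells, fell by 1.88 on the log2 scale.

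An interaction term over 17194 genes asked whether any of these changes was larger or smaller in the selected cells than in the other fibroblasts. Library was a factor, so both kinds of cells were compared within each library. For Per1-/- against WT 0 genes (0.0%) passed by edgeR, with 525 at an unadjusted p below 0.05, 0 by DESeq2 and 81 by edgeR without Per1-/- day 4. For Per2-/- against WT 0 (0.0%) passed, with 502 at an unadjusted p below 0.05, 2 by DESeq2 and 12 by edgeR without Per2-/- day 7. For day 10 against day 4 0 (0.0%) passed, with 619 at an unadjusted p below 0.05, 2 by DESeq2 and 27 by edgeR without Per1-/- day 4. Chosen after the values were seen, the test restricted to selected cells with a Dlx gene gave 3, 17 and 10 genes.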

How the data were processed

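Single-cell 3′ libraries (10x Genomics) were deposited as 9 filtered matrices of UMI counts per gene and cell, which the authors made with Cell Ranger (7.1 per the submitters' notes) on mm10. The matrices of days 4 and 7 list 31053 genes and those of day 10 list 32285. Genes were joined by identifier, and 597 shared identifiers carried different symbols. Total counts were 126625215 to 353198559 UMI per library. At most 38 barcodes were shared by a pair of libraries.

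Raw counts were summed over the selected cells of each library and over its other fibroblasts, and CPM were computed from these sums. Genotype and day were tested with edgeR 4.0.16 (quasi-likelihood F-test, TMM, filterByExpr, Benjamini-Hochberg adjustment over all genes tested, threshold 0.05) in R 4.3.3, with DESeq2 1.42.0 as an alternative. Shares were compared by exact permutation. Contrasts of selected with other fibroblasts were counted as at least 2-fold in every library with at least 10 CPM in the higher group, with no test. Doublets were scored with scanpy 1.11.5 and kept, and were left out in an alternative. The tests were checked on simulated data. Sums used numpy 2.4.6, pandas 2.3.3 and scipy 1.17.1.

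Named genes were drawn from at most 20 highest and 10 lowest called against other fibroblasts, at most 8 largest rises and falls of each test, and the lists. Not all of these are named, and no interaction passed in the main fit, so none is named. Some genes, Igf2 and Hmga2 among them, were added outside this rule. Members and lists were chosen with earlier results of these data known. Coordinates are from GENCODE M21 and promoters from RefSeq, both on GRCm38. Some items are not reported here.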

Additional observations from a re-analysis of the deposited data

How the results depend on the processing

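Between libraries, no paired analysis was possible because the labels give no replicate numbers that groups share, with 1 library per genotype and day. Day or genotype entered each fit of the selected cells as a covariate instead, and shares were permuted within days or genotypes. The interaction fits paired selected and other fibroblasts by library, which entered as a factor. Without the filter on low counts edgeR called 5 genes for Per1-/- against WT, 11 for Per2-/- against WT, 9 for Per1-/- against Per2-/-, 195 for day 7 and 590 for day 10 against day 4, and 2 for the Per2-/- interaction. DESeq2 called 7, 16, 17, 151 and 488 genes in the 5 comparisons, and 2 each for the Per2-/- and day 10 interactions. Without high doublet scores the counts were 0 for Per1-/- against Per2-/-, 15 for day 7 and 5 for the Per2-/- interaction. In cells with Dlx5 or Dlx6, chosen after seeing the data, they were 46 for day 7 and 3, 17 and 10 for the Per1-/-, Per2-/- and day 10 interactions. The cause of these changes was not tested. Against other fibroblasts, 6 genes outside the rule became 28 at 15000 to 30000 UMI, 46 with at least 4 markers (4 libraries) and 15 when 8 of 9 libraries sufficed. Against Hoxd13 and Msx1 fibroblasts, 74 (Hoxd13 and Msx1 included) became 148, 158 and 128 at 15000 to 30000 UMI, with at least 4 markers and without high doublet scores, in 8, 4 and 8 libraries. Gene tests with at least 4 markers were not run, since too few libraries had enough cells.

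Leaving out 1 library at a time gave 0 to 7 genes for Per1-/- against WT (7 without Per1-/- day 4), 0 to 2 for Per2-/- against WT and 0 to 4 for Per1-/- against Per2-/- (4 without Per2-/- day 4, 0 without any of 6 others, and Pappa called in 2 of 9). It gave 2 to 21 for day 7 (21 without Per2-/- day 4, 2 without WT or Per1-/- day 7) and 84 to 275 for day 10 (84 without Per2-/- day 10, 98 without Per1-/- day 10, 110 without WT day 10, 134 without WT day 4, 136 without Per1-/- day 4, 177 without WT day 7). The interactions gave 0 to 81 for Per1-/- (81 without Per1-/- day 4), 0 to 12 for Per2-/- (12 without Per2-/- day 7) and 0 to 27 for day 10 (27 without Per1-/- day 4). Counts against other fibroblasts were 5 to 9 and against Hoxd13 and Msx1 fibroblasts 74 to 96. The share differences were -4.09 to -0.794 points for Per1-/-, 0.0993 to 9.25 for Per2-/- and -5.22 to 0.695 for WT, and the slope -6.95 to -0.83. Of the alternative levels of single genes 384 stayed within 1 SD of the library spread and 32 did not, and of the alternative tests of single genes 378 kept and 126 lost their call. Libraries with 52 and 56 selected cells resolve no level below about 2.20 and 2.33 CPM. Ptgds, Cxcl15 and Alx1 at 15000 to 30000 UMI, and Alx1 with at least 4 markers, gave no ratio, since the median library had 0 UMI.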
